A study of Homo sapiens with 4 samples.

Results

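The peaks described here come from 2 chromatin immunoprecipitation sequencing (ChIP-seq) libraries of H69 cells. One was made with the Avruch antibody against YAP and the other with an antibody against TEAD1. Members are the peaks on chromosomes 1 to 22 that are narrower than 1000 bp. This rule kept 9214 of the 10118 Avruch peaks and 46548 of the 48962 TEAD1 peaks, so 55762 of the 61551 peaks in the 3 peak lists of the series. The 3rd list, from a YAP antibody of Santa Cruz, was a further readout, with 2071 peaks under the same rule. Its peaks of 1 kb or wider were also used below to set apart members near wide peaks.

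H69 is given in the labels as a human cell line, and the name is known for an immortalised line of bile duct epithelium (cholangiocytes). The labels name no genotype, transgene, drug or time point, and both groups are the same cells as far as the labels go. Cells were fixed with 1% formaldehyde for 10 min and sonicated to fragments of about 250 bp. The labels name the antibodies as YAP and TEAD, and the design text gives the names Avruch and TEAD1 used here. Each antibody has 1 library and no replicate. The series also has a library of unrelated IgG, which was not analysed here. The peak lists carry no read totals, and their lengths do not rank the proteins. With 1 library per antibody there was no test between groups. Shares carry Wilson 95% intervals, which cover counting error only, and every difference below describes these libraries.

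YAP is the coactivator at the end of the Hippo pathway. It has no DNA-binding domain of its own, and when the upstream kinases are inactive it enters the nucleus and is brought to DNA by the TEAD factors, which recognise the core sequence GGAATG. CCN2 (also CTGF), CCN1 (also CYR61), ANKRD1 and AMOTL2 are the genes most often used to read out this pair. Many of the sites bound by YAP and TEAD in epithelial cells lie at distal enhancers, where AP-1 factors also bind.

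The promoters of 3 such target genes, each covered at least in part by a TEAD1 peak, are printed first. The 250 bases before the start site were taken from RefSeq (build GRCh38.p14, minus strand in each case), because the peak lists hold no sequence. Capitals mark the TEAD core, searched as GGAATG and, for the other strand, CATTCC. They were picked because each lay at least partly under a TEAD1 peak, held at least 2 matches, and had no Avruch peak. The NUAK2 peak is only 198 bp wide and does not reach the match farther from the start site.
CCN2 (chr6:131951373-131951622): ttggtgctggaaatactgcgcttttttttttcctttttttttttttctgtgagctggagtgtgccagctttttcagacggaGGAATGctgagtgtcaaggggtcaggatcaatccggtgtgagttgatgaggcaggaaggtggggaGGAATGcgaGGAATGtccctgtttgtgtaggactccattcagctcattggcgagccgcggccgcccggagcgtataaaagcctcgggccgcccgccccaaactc
ANKRD1 (chr10:90921088-90921337): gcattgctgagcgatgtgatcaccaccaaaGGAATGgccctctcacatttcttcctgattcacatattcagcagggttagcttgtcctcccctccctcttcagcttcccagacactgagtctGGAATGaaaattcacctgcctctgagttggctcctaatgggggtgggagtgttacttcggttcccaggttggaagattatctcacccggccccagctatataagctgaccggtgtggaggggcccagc
NUAK2 (chr1:205321746-205321995): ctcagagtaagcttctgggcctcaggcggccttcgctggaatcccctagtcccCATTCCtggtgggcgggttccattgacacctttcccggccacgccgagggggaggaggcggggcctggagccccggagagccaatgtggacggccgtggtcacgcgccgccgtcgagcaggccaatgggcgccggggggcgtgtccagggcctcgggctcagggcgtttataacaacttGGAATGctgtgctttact

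The CCN2 promoter held 3 matches, which begin 169, 104 and 95 bases before the start site. The ANKRD1 promoter held 2, at 220 and 128 bases, and the NUAK2 promoter 2, at 197 and 18 bases. At least 1 match was present in 11.9% of the 33725 autosomal promoter windows of this length, and at least 2 in 0.949%. A match is a description of the letters and not a bound site.

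Most Avruch peaks had no TEAD1 peak, and nearly all TEAD1 peaks had no Avruch peak. An overlap of at least 1 bp with a TEAD1 peak was found for 1208 of 9214 Avruch peaks (13.1%, 12.4 to 13.8), which leaves 8006 without one. Seen from the other list, 1178 of 46548 TEAD1 peaks overlapped an Avruch peak (2.53%, 2.39 to 2.68), which leaves 45370. The shares fell to 5.44% and 1.08% where the overlap had to cover 50% of both peaks. TEAD1 peaks were wider, with a median of 273 bp (quartiles 236 and 349) against 149 bp for Avruch (137 and 175), so a narrow Avruch peak inside a wide TEAD1 peak can fail that stricter rule. The width limit also mattered, since 1691 narrow Avruch peaks (18.4%) overlapped some TEAD1 peak when the TEAD1 list was kept whole. At the limit itself, the 30 Avruch peaks of 900 to 999 bp had a median score of 161.9, and the 18 of 1000 to 1099 bp one of 190.1. For TEAD1 the medians were 248.6 over 120 peaks just inside and 252.3 over 69 just outside.

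The overlaps made 1222 pairs. Since a pair is defined by an overlap, its midpoints must be close, and the distances within pairs are a description only. The midpoints were a median of 58 bp apart (quartiles 26.5 and 112.4) and 543 pairs (44.4%) had midpoints within 50 bp. The Avruch peak lay wholly inside the TEAD1 peak in 733 of the pairs, the reverse held in 16, and 22 pairs shared under 20 bp. The Avruch midpoint was at the higher coordinate in 628 pairs and at the lower in 593. Few peaks had several partners, with 14 Avruch and 41 TEAD1 peaks in 2 or more pairs.

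The excess of TEAD1 peaks around Avruch peaks was sharpest at short range. Within 100 bp of Avruch midpoints there were 858 TEAD1 midpoints, and the next 100 bp held 2.50 times the distant level. Between 2 and 5 kb a bin of the same size held 99.5 on average, so the nearest bin was 8.62 times as full. Between 400 and 1000 bp the mean was 136.5 per bin, 1.37 times the distant level. Leaving out windows of 200 kb with more than 5 Avruch peaks gave 731 TEAD1 midpoints in the nearest bin and 48.4 per distant bin, a ratio of 15.1. The distant level is a local one. In both settings it lay above the mean density over the autosomes, 1.62 TEAD1 peaks per 100 kb. The ratios therefore do not measure a wider excess that reaches beyond 2 kb.

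**Figure D1:**
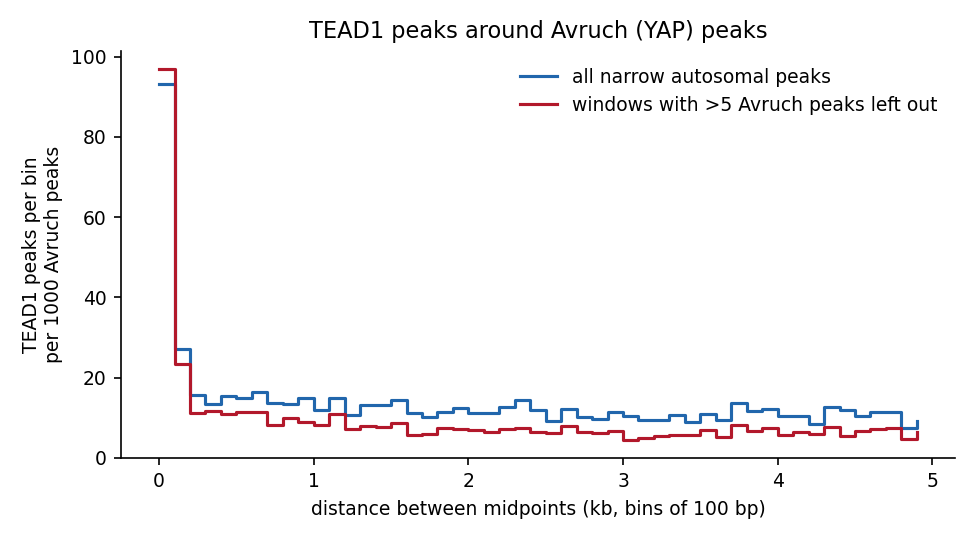
TEAD1 peaks (midpoints, per 1000 Avruch peaks and per bin of 100 bp, y axis) against distance from the Avruch midpoint (kb, x axis), for all narrow autosomal peaks and with windows holding more than 5 Avruch peaks left out. The bin nearest to 0 is 8.62 times the mean of the bins from 2 to 5 kb for all peaks and 15.1 times with those windows left out.

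Avruch peaks without an overlap were a median of 14017 bp from the nearest TEAD1 midpoint (quartiles 4.34 and 38.6 kb). Of the 8006, 612 (7.64%) had a TEAD1 midpoint within 1 kb, and 695 (8.68%) had none within 100 kb. For TEAD1 peaks without an overlap the median distance to an Avruch midpoint was 85.6 kb, and 20657 (45.5%) had none within 100 kb. The longer TEAD1 list puts more TEAD1 peaks near any position, so these distances cannot be compared between the lists. Avruch peaks with an overlap had a median of 3 further TEAD1 peaks within 50 kb, and those without an overlap had 2 TEAD1 peaks in that range.

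Avruch peaks that overlapped TEAD1 ranked higher in the Avruch list than the others. The score is the authors' own value per peak, has no stated unit and is compared only within a list. Its median was 66.0 (quartiles 58.6 and 79.7) for Avruch peaks with TEAD1 and 62.7 (57.0 and 71.5) for those without. On the scale of percentiles within the list, the medians were 61.2 (95% interval 58.1 to 65.0) and 48.8 (47.6 to 49.8). The share with TEAD1 was between 9.66% and 12.9% in the lowest 7 deciles of Avruch score, 16.3% (14.04 to 18.8) in the 9th and 23.1% (20.5 to 25.9) in the highest. Away from wide peaks, meaning at least 50 kb from any peak of 1 kb or wider, the highest decile reached 27.6% (23.8 to 31.7). Width moved with this, since the share was 18.5% in the widest decile of Avruch peaks, but it was also 17.03% in the narrowest. Within each of 5 width classes the median percentile was higher with TEAD1 than without, by 2.07 to 5.72 points. The part of width in the result was not tested further.

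TEAD1 peaks behaved otherwise at the top of their list. TEAD1 peaks with an Avruch peak had a median score of 76.5 (quartiles 61.2 and 106.2) and those without 66.5 (56.9 and 91.3), at median percentiles of 63.7 (61.9 to 66.0) and 49.6 (49.1 to 50.1). The share with Avruch was 1.504% (1.19 to 1.90) in the lowest decile of TEAD1 score and 3.89% (3.37 to 4.48) in both the 8th and the 9th. It was 2.94% (2.50 to 3.47) in the highest decile, and 1.83% (1.47 to 2.26) there away from wide peaks. Among the 500 TEAD1 peaks with the highest scores, 5 overlapped an Avruch peak (1.00%, 0.428 to 2.32), and among the top 100 there were 2. Of the 500 highest Avruch peaks, 113 overlapped TEAD1 (22.6%, 19.2 to 26.5). TEAD1 width also moved with this result. In the widest 5th of TEAD1 peaks the median percentile with Avruch was lower than without (84.4 against 87.8), and in the narrowest 5th it was higher by 13.96 points.

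**Figure D2:**
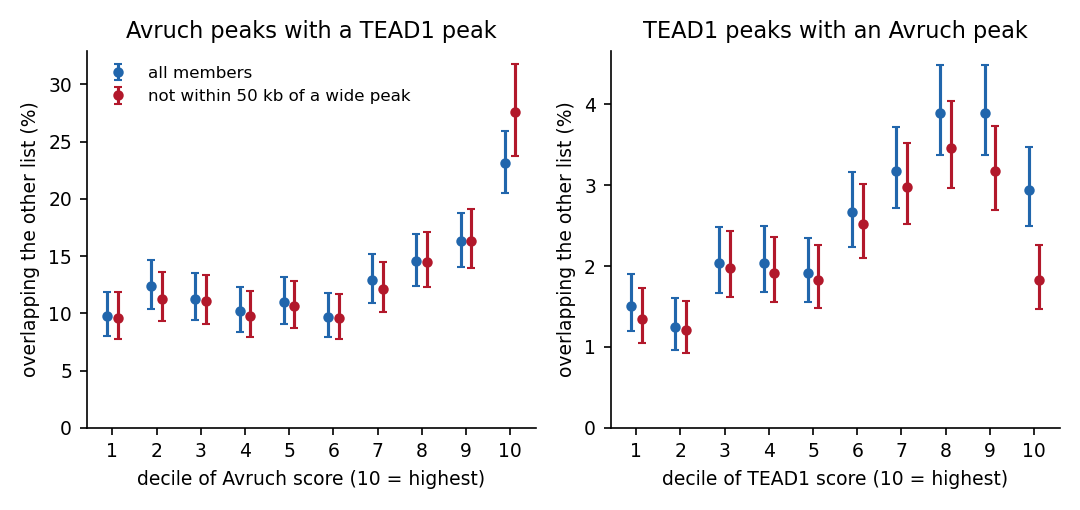
Share of peaks that overlap the other list (%, y axis) by decile of score within the list (x axis), for Avruch peaks on the left and TEAD1 peaks on the right; bars are Wilson 95% intervals, and red points leave out peaks within 50 kb of a wide peak. The Avruch share is highest, at 23.1%, in the top decile, while the TEAD1 share is 3.89% in the 8th and 9th deciles and 2.94% in the top decile.

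Within pairs, a high rank in one list went with a high rank in the other only loosely. Spearman's rho of the 2 percentiles was 0.151 across the 1222 pairs, which share genome positions and local density and are not independent. Of the pairs, 221 had the Avruch peak in the top decile of its list, 157 had the TEAD1 peak there, and 56 had both.

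The Santa Cruz antibody, which the choice of members did not use, found Avruch peaks with TEAD1 more often than Avruch peaks without. Over all Avruch members, 398 of 9214 (4.32%) overlapped a Santa Cruz peak. With a TEAD1 peak the count was 126 of 1208 (10.4%, 8.83 to 12.3), and without one it was 272 of 8006 (3.397%, 3.02 to 3.82). The difference was 7.03 percentage points (5.38 to 8.92). Both overlaps were also more frequent at high Avruch scores. Of the 1000 highest Avruch peaks, 206 overlapped Santa Cruz and 229 overlapped TEAD1. The part of score in the difference was not tested. Away from wide peaks the counts were 66 of 1005 (6.57%) and 42 of 6984 (0.601%), a difference of 5.97 points (4.58 to 7.68). The wide peaks came from all 3 lists, so Santa Cruz peaks helped choose this subset, unlike the comparison over all members. Whether the lists share a control library is not given in the sources used here, and its part in the result was not tested.

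The overlap was spread over all 22 chromosomes. The Avruch share with TEAD1 ran from 9.73% on chromosome 17 (39 of 401 peaks, 7.196 to 13.02) to 19.002% on chromosome 5 (118 of 621, 16.1 to 22.3). Chromosome 14 (18.8%, 13.9 to 24.8) and chromosome 19 (16.7%, 13.9 to 19.9) were also above the share of 13.1% over all members. Outside windows with more than 5 Avruch peaks, chromosome 5 stood at 14.5%, chromosome 14 at 14.1% and chromosome 19 at 11.8%. The highest shares there were on chromosome 21 (17.3%, 11.1 to 26.0) and chromosome 13 (16.7%, 11.9 to 22.9), which stood at 16.3% and 16.4% over all their peaks. On chromosome 5, 180 Avruch peaks lay in such dense windows, and 54 of them overlapped TEAD1. The segment from 68881185 to 70525831, which is known for the duplication that holds SMN1 and SMN2, held 95 of them in 8 windows, 37 with TEAD1 (38.9%, 29.8 to 49.0) and 12 with Santa Cruz. This segment was singled out after its values were seen.

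Dense windows differed widely in how far TEAD1 accompanied Avruch. There were 117 windows of 200 kb with more than 5 Avruch peaks, which together held 1666 Avruch peaks (18.1% of the list). Of these, 270 overlapped TEAD1 (16.2%, 14.5 to 18.1), against 938 of 7548 elsewhere (12.4%, 11.7 to 13.2). In 43 of the windows no Avruch peak overlapped TEAD1, and in 8 at least 50% did. The fullest window, on chromosome 4 from 9213414 to 9370712 in the USP17L gene array, held 106 Avruch peaks, of which 4 overlapped TEAD1. The next, beside the centromere of chromosome 1 (121400059 to 121474849), held 61 Avruch peaks and no TEAD1 peak. A window of chromosome 19 (48406919 to 48599799) had 51 Avruch peaks, 31 of them with TEAD1. On chromosome 14, from 105696159 to 105705709 inside BRF1, a subunit of the RNA polymerase III initiation factor, 11 of 12 Avruch peaks overlapped TEAD1, and none overlapped Santa Cruz. That window held no peak near a wide peak, and the chromosome 19 window had 96.1% of its Avruch peaks near one.

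**Figure D3:**
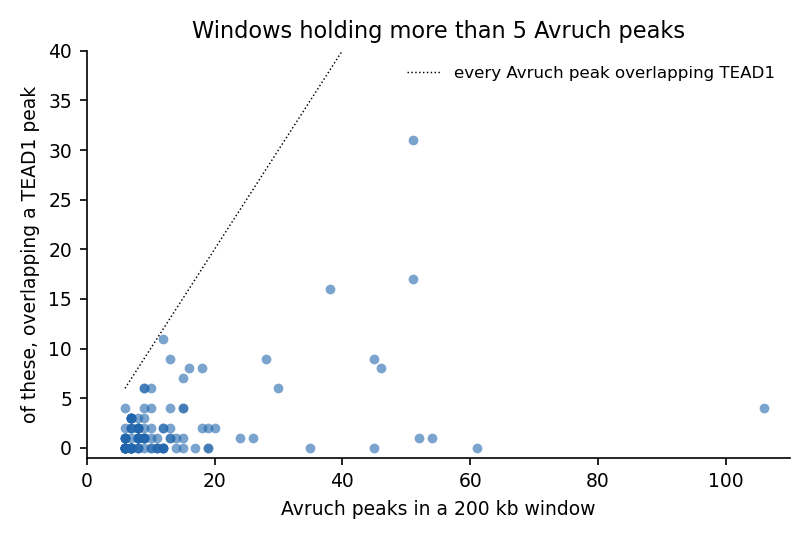
Avruch peaks in each of the 117 windows of 200 kb with more than 5 of them (x axis) against how many of these overlap a TEAD1 peak (y axis); each point is a window and the dotted line marks complete overlap. The window with 106 Avruch peaks has 4 with TEAD1, the highest count is 31, and 43 windows lie at 0.

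The highest-scoring peak of the Avruch list was also among the highest of the TEAD1 list. It lay on chromosome 14 (62221974 to 62222285, Avruch score 480.3), wholly inside a TEAD1 peak of 714 bp (62221782 to 62222495, score 3100, joint 3rd of the list). The midpoints were 9 bp apart, and no Santa Cruz peak was there. The site is 6.95 kb before the start of SNAPC1, a subunit of the complex that starts transcription of small nuclear RNA genes, and beyond the end of HIF1A, the oxygen-regulated transcription factor gene. Most other leading Avruch peaks with TEAD1 paired with weaker TEAD1 peaks. The site on chromosome 21 (47604381 to 47604701, score 319.4), at the start of SPATC1L, had a TEAD1 peak at percentile 77.7. The one on chromosome 5 (17595455 to 17596017, score 323.7) had its TEAD1 partner at percentile 76.6, and that on chromosome 8 (86796153 to 86797116, score 286.0) at percentile 53.8, and both lay in dense windows near a wide peak. On chromosome 4 (60384738 to 60385193, score 270.0) the partner was at percentile 94.2.

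The leading Avruch peaks were wide for the list in both classes, at 312 to 964 bp with TEAD1 and 603 to 999 bp without. The highest without TEAD1, at 863 bp, lay inside CAMTA1 on chromosome 1 (7174813 to 7175675, score 471.6), a calmodulin-binding transcription activator gene, and was 177.8 kb from the nearest TEAD1 midpoint. It was followed by neighbours on chromosome 21 (9825438 to 9826436, score 417.5, and 9826652 to 9827581, score 400.7), which lay beside wide peaks. The next were on chromosome 8 (46838889 to 46839491, score 328.7) and chromosome 2 (242950292 to 242951067, score 327.2), both near wide peaks.

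The leading TEAD1 peaks without Avruch were at well-known genes in part. The highest lay on chromosome 9 (114792172 to 114792828, score 3139.8), downstream of SUSD1. The next lay inside ETS1, the founding ETS transcription factor gene, on chromosome 11 (128387447 to 128388042, score 3133.1). Peaks with a score of 3100 followed on chromosome 4 (84128740 to 84129456) and inside COA1 on chromosome 7 (43733435 to 43734101). The 5th lay over the start site of CCN2 on chromosome 6 (132272198 to 132272901, score 3039.5). Nearest Avruch midpoints were 21.4 to 97.4 kb away. TEAD1 peaks with Avruch were led by the SNAPC1 site and a peak on chromosome 10 (47152496 to 47153106, score 2982.7), whose Avruch partner was at percentile 42.3. Next came chromosome 2 (109815710 to 109816484, score 764.1), a site inside LIPC on chromosome 15 (58761940 to 58762627, score 690.2) and one inside CCDC127 on chromosome 5 (209171 to 209940, score 652.6).

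Known target loci were then examined, each taken as the gene with 50 kb to either side. Positions of the 88 genes in hg19 were entered from general knowledge, since no annotation of that build was used here, and gene coordinates are not printed. As a comparison, the autosomes were cut into 23230 tiles of 124 kb, the median length of the loci. TEAD1 peaks were present in 66.5% of tiles, Avruch peaks in 25.6%, and an Avruch peak overlapping a TEAD1 peak in 4.2%. A TEAD1 peak above the 90th percentile of score was present in 14.9%. Tiles include gene-poor sequence, and the loci of longer genes exceed them in length.

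The YAP/TEAD target genes carried strong TEAD1 peaks, and 2 of them held an Avruch peak that overlapped one. All 22 had a TEAD1 peak in the locus, as did all 88 listed loci, against 66.5% of tiles. The targets had 166 peaks in total or 3.61 per 100 kb, against 1.62 over the tiles. In 19 of the 22 the strongest was above the 90th percentile of the TEAD1 list, and 14.9% of tiles held such a peak. In 9 it was above the 99th, for which no tile share was computed. Over all 88 loci these counts were 58 and 12. The target loci had a median length of 143.9 kb, longer than a tile, and length was not matched. Avruch peaks were present in 11 of the 22 loci, against 25.6% of tiles, with 25 peaks in total or 0.544 per 100 kb, against 0.320 over the tiles. Of the 25, 2 overlapped TEAD1, at AXL and DOCK5. A pair was thus present in 2 of 22 loci, against 4.2% of tiles, and a count this small does not set the targets apart from the tiles. The count was 1 with 10 kb to either side and 2 with 100 kb. With 10 kb, Avruch peaks were in 7 of the 22 loci, at 0.459 per 100 kb. TEAD1 peaks were then in 20 of the 22 and in 75 of the 88.

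CCN2, a secreted matrix protein, had 5 TEAD1 peaks in its locus, with scores of 3039.5 over the start site, 264.9 at 28.9 kb before it, 115.2 at 3.44 kb before it, and 167.7 and 85.6 at 12.8 and 13.3 kb downstream. There was no Avruch peak in the locus, and the nearest was 97.5 kb from the start site. The promoter printed above, with 3 matches to the TEAD core, lies under the strongest of these. CCN1, a related secreted protein, had 13 TEAD1 peaks. The strongest stood 26.6 kb downstream of the start site (score 1296.9) and another covered the start site itself (86046001 to 86046621 on chromosome 1, score 568.2). Its nearest Avruch peak was 168.1 kb away. AMOTL2, an angiomotin that holds YAP in the cytoplasm, had 13 TEAD1 peaks, the strongest with scores of 1042.5 and 906.5, and no Avruch peak within 91.4 kb of its start site. ANKRD1, a nuclear ankyrin repeat protein, was added after its values were seen. It had TEAD1 peaks of 421.0 over the start site and 578.2 at 9.99 kb before it, and its nearest Avruch peak was 479.7 kb away. None of these 4 loci held an Avruch peak. Each held at least 1 TEAD1 peak above the 98th percentile, and CCN1 and AMOTL2 also held weaker ones, down to scores of 52.02 and 55.77.

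CCDC80, a matrix-associated protein gene, had 11 TEAD1 peaks led by one at 2.33 kb after the start site with a score of 2239.9, and no Avruch peak. NUAK2, a kinase of the AMPK family, had 7 TEAD1 peaks. Its strongest, with a score of 2188.5, lay just past the end of the gene, 20.2 kb from the start, while the one over the promoter printed above had a score of 54.9. Its single Avruch peak, 39.8 kb downstream of the start site, overlapped none of them.

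AXL and DOCK5 were the targets where both lists met. At AXL, a receptor tyrosine kinase gene, an Avruch peak 39.3 kb before the start site (41685740 to 41685912 on chromosome 19, score 89.4) lay inside a TEAD1 peak of 954 bp (score 261.2). This pair lay in a dense window of 6 Avruch peaks and was the only one there. The stronger TEAD1 peaks at 4.36 and 6.59 kb into the gene (scores 1028.5 and 569.5) had no Avruch peak. At DOCK5, an exchange factor for Rac, the pair lay 94.98 kb downstream of the start site (25137202 to 25137334 on chromosome 8, Avruch score 76.0, TEAD1 score 82.2), and the strongest TEAD1 peak, 10.9 kb downstream of it with a score of 898.7, again had none.

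**Figure D4:**
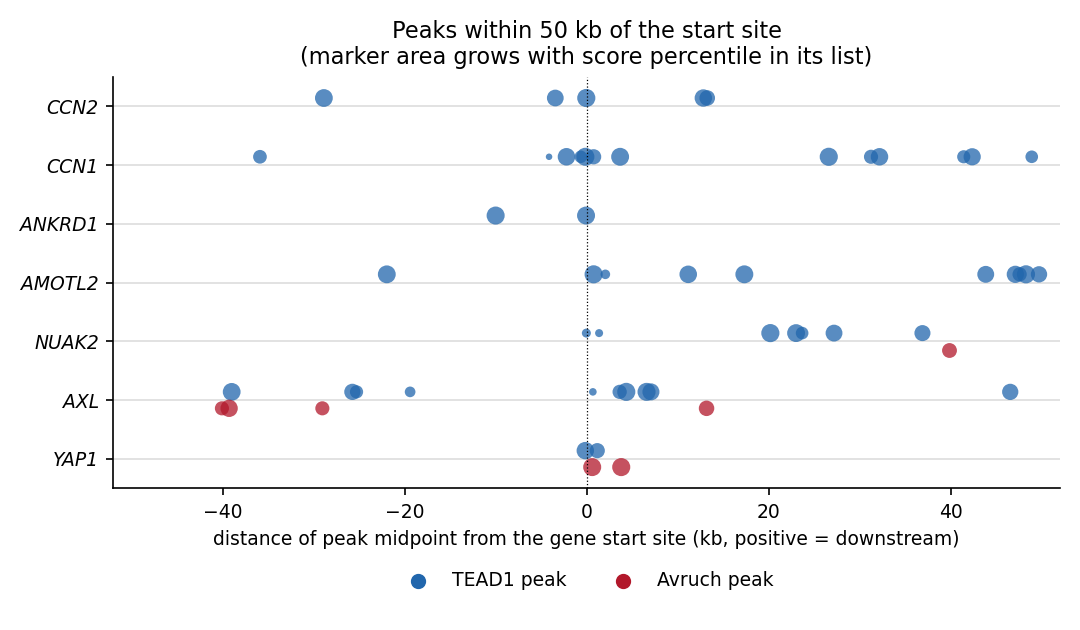
Narrow peaks within 50 kb of the start site of 7 genes (rows), by distance of the peak midpoint from the start site (kb, x axis), with TEAD1 in blue and Avruch in red; marker area grows with the score percentile within the list. CCN2, CCN1, ANKRD1 and AMOTL2 show TEAD1 peaks and no Avruch peak, and at AXL 1 Avruch peak falls on a TEAD1 peak.

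All 22 genes of the Hippo pathway itself had TEAD1 peaks, against 66.5% of tiles, with 132 in total. Avruch peaks were present in 14 of these loci, against 25.6% of tiles, 30 in total, of which 3 overlapped TEAD1, at YAP1, TEAD1 and MOB1A. AMOTL2, LATS2 and PTPN14 belong to both lists. With 10 kb to either side, Avruch peaks were in 9 of the 22 Hippo loci, at 0.435 per 100 kb. The YAP1 locus had Avruch peaks at 0.618, 3.81 and 119.4 kb downstream of the start site, with scores of 155.4, 192.9 and 200, all above the 98th percentile of the Avruch list. None of these overlapped TEAD1 or Santa Cruz peaks, though TEAD1 had a peak of 172.3 over the start site and one of 80.1 at 1.17 kb. The YAP1 pair lay beyond the gene, at 137.3 kb, with an Avruch score of 82.8 and a TEAD1 score of 66.7. At TEAD1 the pair, at 45.6 kb, had scores of 57.3 and 59.5, both under the 33rd percentile of their lists, while TEAD1 peaks of 556.8 at 95.7 kb and 283.6 at the start site had no Avruch peak. At MOB1A, an activator of the LATS kinases, the pair stood 49.5 kb downstream of the start site, with scores of 78.9 (Avruch) and 52.9 (TEAD1). TEAD4 had a TEAD1 peak of 634.3 at its start site, and the strongest TEAD1 peaks at TEAD3, NF2 and SAV1 scored 623.7, 593.0 and 442.0, none with an Avruch peak on it. LATS1, named after its values were seen, had 5 Avruch peaks, one with a score of 201.3, and no overlap.

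Of the 13 AP-1 genes, which encode dimer partners that often bind beside TEAD, all had TEAD1 peaks, against 66.5% of tiles. These were 82 in total, or 5.55 per 100 kb, against 1.62 over the tiles. Avruch peaks were in 7 of the 13 loci, against 25.6% of tiles, and ATF3 and BATF3 share the same Avruch peak. This count depended on the flank. With 10 kb to either side it was 1 of the 13, at 0.229 Avruch peaks per 100 kb, against 0.320 over the tiles. With 50 kb, a pair was present at 1 locus, JUNB, 22.4 kb before the start site, with scores of 58.8 (Avruch) and 59.4 (TEAD1). The strongest TEAD1 peaks were at FOSB (433.7), MAFF (354.4), ATF3 (310.7), BATF (309.9) and FOSL1 (298.7), and no Avruch peak overlapped these. All 10 growth genes had TEAD1 peaks, as did every other listed locus. None of the 10 had a pair, which is near the share of 4.2% in tiles. The highest were at BCL2L1, an inhibitor of apoptosis (1055.4), the receptor gene EGFR (491.7), its ligand gene AREG (438.6), MYC (402.9) and CDK6, a cell cycle kinase (355.7).

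Bile duct genes had TEAD1 peaks in all 12 loci, against 66.5% of tiles, at 4.37 per 100 kb. Avruch peaks were in 1 locus, EPCAM, against 25.6% of tiles, and there was no pair. In 6 of the 12 loci a TEAD1 peak was above the 90th percentile, against 14.9% of tiles. With 10 kb to either side, 8 of the 12 loci held a TEAD1 peak and 3 held one above the 90th percentile. KRT7, a keratin of duct epithelium, led with a TEAD1 peak of 1116.2 at 2.16 kb before the start site. It was followed by MUC1 (784.6), CLDN4 (428.9), EPCAM (332.5) and JAG1 (181.8). The EPCAM peak lay 53.6 kb downstream of the start site, beyond the gene. Other genes of this list had only weak TEAD1 peaks, with the strongest scoring 88.2 at KRT19, 64.4 at ONECUT1, 58.9 at SOX9 and 58.5 at CFTR. The hepatocyte genes, taken as genes of another cell type, had TEAD1 peaks in all 12 loci as well. They had 2.31 per 100 kb, against 1.62 over the tiles. In 5 loci one was above the 90th percentile, against 14.9% of tiles. With 10 kb to either side, 8 of the 12 hepatocyte loci held a TEAD1 peak and 2 held one above the 90th percentile. Avruch peaks were in 3 of these loci, which is near the share of 25.6% in tiles. Pairs were in 2, APOA2 (Avruch 68.0, TEAD1 66.3) and SERPINA1 (Avruch 105.3, TEAD1 166.3), against 4.2% of tiles. The SERPINA1 pair, 44.6 kb downstream of the start site, was above the 90th percentile in both lists. Other strong TEAD1 peaks in this group were at FGA and FGB, which are neighbours and share the peak (332.5), CYP3A4 (328.5), APOA1 (211.7) and HNF4A (141.2). Loci of neighbouring genes overlap, so totals can count a peak again. Over all 88 loci, 8 held a pair, against 4.2% of tiles, and the counts per list are too small to tell the lists apart.

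**Figure D5:**
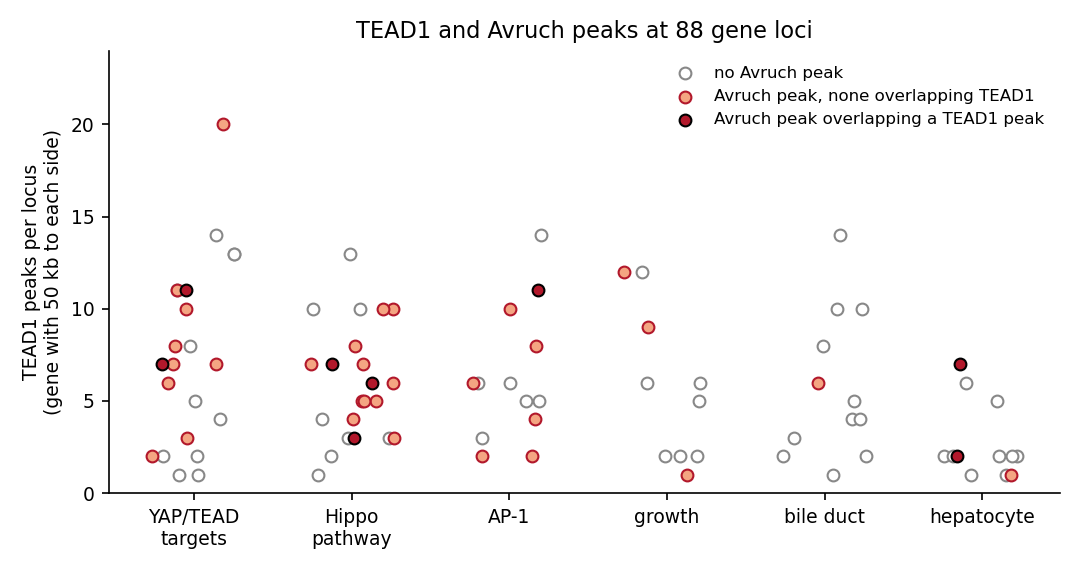
TEAD1 peaks per locus (y axis) for the genes of 6 lists (x axis; each point is a gene, with 50 kb to either side), filled dark red where an Avruch peak overlaps a TEAD1 peak, light red where Avruch peaks overlap none, and open where there is no Avruch peak. Pairs are present in 2 of 22 target, 3 of 22 Hippo pathway, 1 of 13 AP-1 and 2 of 12 hepatocyte loci, and in none of the growth and bile duct loci.

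Start sites were examined last. The 250 bases before the start site lay at least partly under a TEAD1 peak for 13 of the 88 genes and under an Avruch peak for 0. The share of all promoters under a peak was not computed, so neither count is read as particular to these genes. Of the 13, 9 had a promoter in the RefSeq table, and 6 of these 9 held a match to the TEAD core, 3 of them at least 2. These 3 are the promoters printed above, which were picked by that trait. Among the 56 other listed genes with a promoter, 10 held a match and none held 2. Over all autosomal promoter windows the shares were 11.9% with a match and 0.949% with at least 2. Those windows were counted singly, while a listed gene used its entry with the most matches, which can raise its count.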

How the data were processed

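Peaks of H69 cells were taken from the deposited lists of the Avruch (YAP) and TEAD1 libraries, with the Santa Cruz (YAP) list as a further readout. Reads were aligned with Bowtie2 to hg19, per the submitters' processing notes. Peak names carry the name MACS, per the deposited files. The sources used here do not give the caller's version, settings, control library or treatment of duplicates. The score of each peak is the authors' deposited value, on no stated scale, and was ranked within its list only. A score may rise with peak width and depth.

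Members and gene lists were chosen with earlier results of these data known. Overlaps, midpoint distances and Wilson intervals were computed in Python 3.11.15 with pandas 2.3.3, numpy 2.4.6 and SciPy 1.17.1, after the code had been tested on simulated data. Intervals of medians come from order statistics, and that of a difference between shares from Newcombe's method. Coordinates are 1-based, hg19 unless stated.

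The peaks named were the 5 with the highest scores with and without an overlap in each list. The genes named were those with an overlapping pair, and up to 5 more per list by TEAD1 score. The 88 hg19 gene positions, from general knowledge, were checked against RefSeq (GRCh38.p14): 88 were on the same chromosome and 77 had a length within 5%. The 14 genes beside leading peaks were added after the peaks were seen. All 14 were on the same chromosome and 11 had a length within 5%. The others include LIPC and CCDC127, for which no distance is given, and 1 gene that is not named. Gene positions carry an error that was not measured. Promoters were matched by symbol for 65 of the 88 genes, and the entry with the most matches was used where there were several. Motifs within peaks and distances to all start sites were planned and not run, because no hg19 genome or annotation was used here.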

Additional observations from a re-analysis of the deposited data

How the results depend on the processing

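Avruch peaks with TEAD1 (13.1%) were 5.44% with an overlap of 50% of both peaks, 11.9% with windows of 200 bp around midpoints, 10.7% within the upper 50% of scores in both lists, 10.7% with width below 500 bp, 18.4% with the TEAD1 list kept whole and 12.4% with dense windows left out. TEAD1 peaks with Avruch (2.53%) were 1.08%, 2.36%, 2.10% and 2.20% in the first 4 of these, 2.07% with dense windows left out and 2.22% away from wide peaks, an alternative chosen after seeing the data. The median Avruch percentile with TEAD1 (61.2) was 69.8 with an overlap of 50%. The median TEAD1 percentile with Avruch (63.7) was 54.1 with an overlap of 50%, 61.7 with dense windows left out and 61.5 away from wide peaks. The cause was not tested, except that the 50% rule can only remove pairs and keeping the TEAD1 list whole can only add them. Dense windows were chosen by their Avruch counts, and 17.1% of the TEAD1 peaks in them overlapped Avruch. Target genes with a pair (2) were 1 with 10 kb to either side. The other 11 of 28 alternative values stayed within the 95% interval of the value reported, or, for the target genes, within 1.5 times. Motif and start-site shares were planned and not run for want of a genome of the build. No paired analysis was possible because each antibody has 1 library. Read depth is unknown, so a missing peak does not show that a protein was absent from a site.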
